A study of Mus musculus with 11 samples.

Results

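The Bcl2 family genes examined here are 10 genes picked by symbol, Mcl1, Bcl2, Bcl2l1, Bcl2l11, Bax, Bak1, Bad, Bid, Bik and Bnip3, out of the 23284 genes listed for every library. All 10 symbols were found in all 11 libraries. RNA-Seq was performed on mouse ESCs, either WT or lacking Tet1, Tet2 and Tet3, the dioxygenases that convert 5-methylcytosine to 5-hydroxymethylcytosine (triple knockout, TKO). Both lines were grown with serum and leukemia inhibitory factor on gelatin. They were collected untreated (0 h) or after 4 h in α-amanitin at 10 µg/ml, a toxin that blocks RNA polymerase II, and 2 ribodepleted total RNA libraries were made for each of these 4 groups. A further 3 libraries were made from polyA RNA of untreated WT ESCs. The sources used here do not say whether the TKO cells are 1 clone, so a difference between genotypes and a difference between lines cannot be told apart.

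Bcl2 family proteins decide whether the outer mitochondrial membrane stays intact. Mcl1, Bcl2 and Bcl2l1 (Bcl-xL) hold the pore-forming effectors Bax and Bak1 in check, and the BH3-only proteins, among them Bcl2l11 (Bim), Bad, Bid and Bik, bind to these guardians or to the effectors and so promote cytochrome c release. Mcl1 is known for an mRNA and a protein that both turn over quickly, and for its need in early embryos, whereas Bnip3 is an atypical BH3-only protein of mitophagy and hypoxia.

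Values are given as TPM, the share of a library's transcripts corrected for gene length, divided by a size factor for each library (scaled TPM). Recovered depth ran from 25507874 to 29781366 reads in the ribodepleted libraries and from 72639837 to 82129168 reads in the polyA libraries. Tet1 and Tet2 were lower in TKO at 0 h by 2.11 and 2.64 on the log2 scale (limma, adjusted p = 1.45e-06 and 3.24e-07). Tet3 was low in all 4 groups, with means between 1.18 and 1.45 scaled TPM, so its knockout could not be read from these values. ESC markers were abundant in every ribodepleted group, with 11 genes summing to between 4267 and 5432 scaled TPM. On the second principal component the TKO libraries lay at 8.14 and 7.81 at 0 h. At 4 h replicate 1 lay at -2.37 and replicate 2 at -15.0, so TKO results at 4 h are also given without replicate 1. With 2 libraries it cannot be told which is typical, and leaving out the one nearer to 0 h favours larger changes.

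Mcl1 and Bax were the most abundant members, far above the rest, and Bcl2 was almost silent. At 0 h in WT, Mcl1 stood at 278 ± 5.02 and Bax at 277 ± 14.9 scaled TPM (SD, n = 2 libraries), and the libraries of these 2 genes overlapped. Then came Bid at 60.4 ± 0.724, Bak1 at 45.1 ± 0.115, Bnip3 at 33.5 ± 3.64 and Bcl2l1 at 33.4 ± 0.826, of which Bnip3 and Bcl2l1 overlapped. Bcl2l11 (19.3 ± 1.06), Bad (11.5 ± 1.24), Bik (2.10 ± 0.459) and Bcl2 (0.584 ± 0.028) followed in steps that did not overlap.

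**Figure D1:**
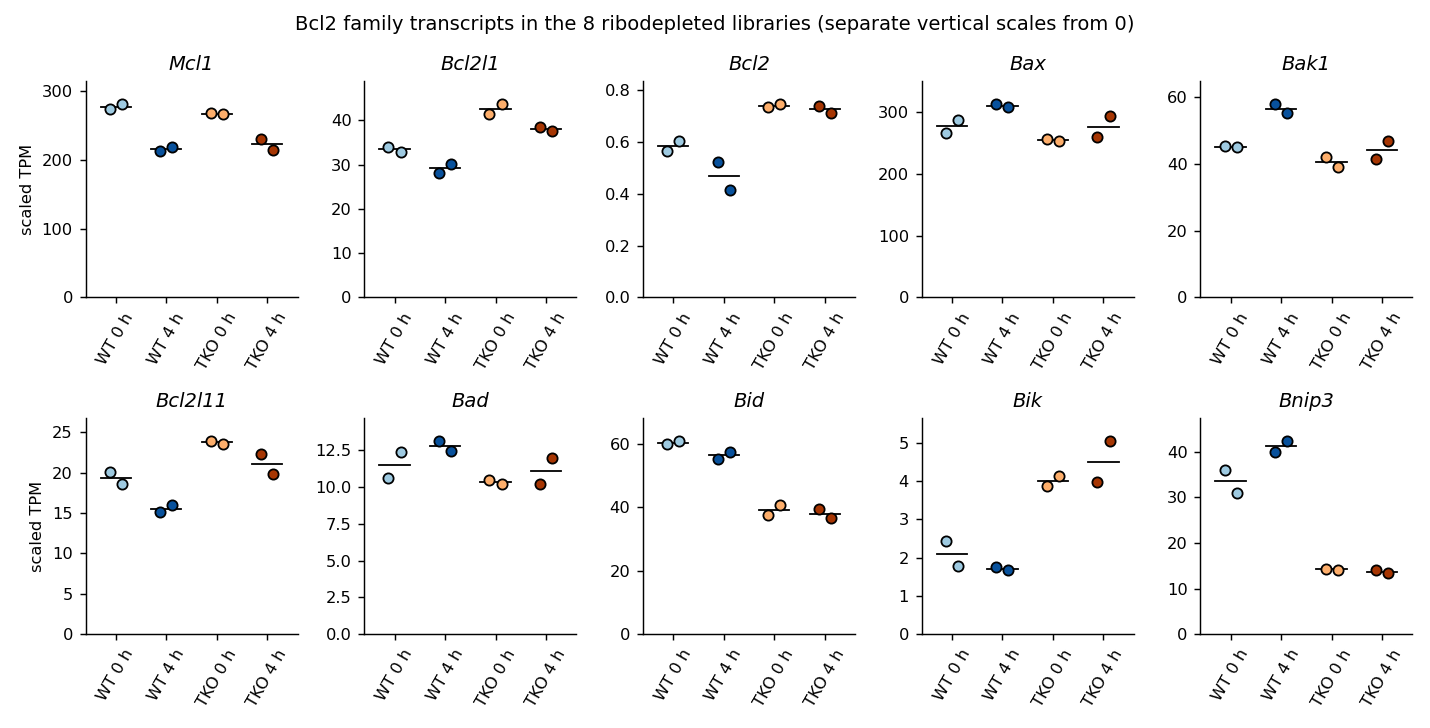
Scaled TPM (vertical axes, each from 0) of the 10 members in the 8 ribodepleted libraries, with 1 point per library and a line at the mean of the 2 libraries of a group. Mcl1 drops from between 274 and 281 to between 213 and 219 in WT, while Bnip3 and Bid separate the genotypes at both times.

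The order of the levels differed between groups. In TKO at 0 h Mcl1 (268 ± 0.611) stood just above Bax (255 ± 1.96), and Bcl2l1 (42.5 ± 1.55) had moved to the third place, where its libraries overlapped those of Bak1. At 4 h Bax led in both genotypes, at 311 ± 3.65 in WT and 277 ± 23.8 in TKO, and Mcl1 came next. Bcl2, the founder of the family and an inhibitor of Bax and Bak1, held between 43 and 92 reads per ribodepleted library and stayed below the mean of 1 scaled TPM required for testing, so 9 of the 10 members were tested.

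The 3′ UTRs of the members differ in AU-rich elements, the sequence class long tied to rapid mRNA decay. Sites are shown for the 3 tested members that fell after α-amanitin in WT, since all of them hold the heptamer TATTTAT in the annotated 3′ UTR. The heptamer was chosen after the changes were known. Each window has 11 bases on either side, the heptamer is in capitals, and positions are NCBIM37 (mm9) on the strand of the gene.
Mcl1, site 1, chr3:95464805-95464833, plus strand: gaaaacatgtgTATTTATgaaggtggact
Mcl1, site 2, chr3:95466501-95466529, plus strand: ttgtacctgtgTATTTATccttgatcata
Mcl1, site 3, chr3:95466526-95466554, plus strand: catagtttgctTATTTATgtttaactctt
Bcl2l11, site 1, chr2:127986845-127986873, plus strand: tatattttgacTATTTATtagattagaaa
Bcl2l11, site 2, chr2:127987079-127987107, plus strand: gagatgttgtaTATTTATtttccgcttat
Bcl2l1, site 1, chr2:152606628-152606656, minus strand: aagcgtgtctgTATTTATgtgtgaggagc

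Mcl1 carried 3 such heptamers in a 3′ UTR of 2353 bases, Bcl2l11 carried 2 in 4218 bases and Bcl2l1 carried 1 in 1481 bases, while the untested Bcl2 held 2 in 5086 bases. No match was found in the annotated 3′ UTR of Bax (167 bases), Bak1 (1121), Bad (374), Bid (1670), Bik (410) or Bnip3 (1079), although Bnip3 held 5 copies of the shorter ATTTA. Only the transcript strand was searched. Of the 11553 tested genes with an annotated 3′ UTR, 26.03% held at least 1 heptamer, and the median WT change at 4 h was 0.070 on the log2 scale without it, -0.020 with 1, -0.069 with 2 and -0.11 with 3 or more. Long 3′ UTRs hold more matches. Between 1000 and 5000 bases, the medians were 0.019 without and -0.041 with a heptamer. These matches are letters in an annotation, and binding or decay at them was not measured.

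**Figure D2:**
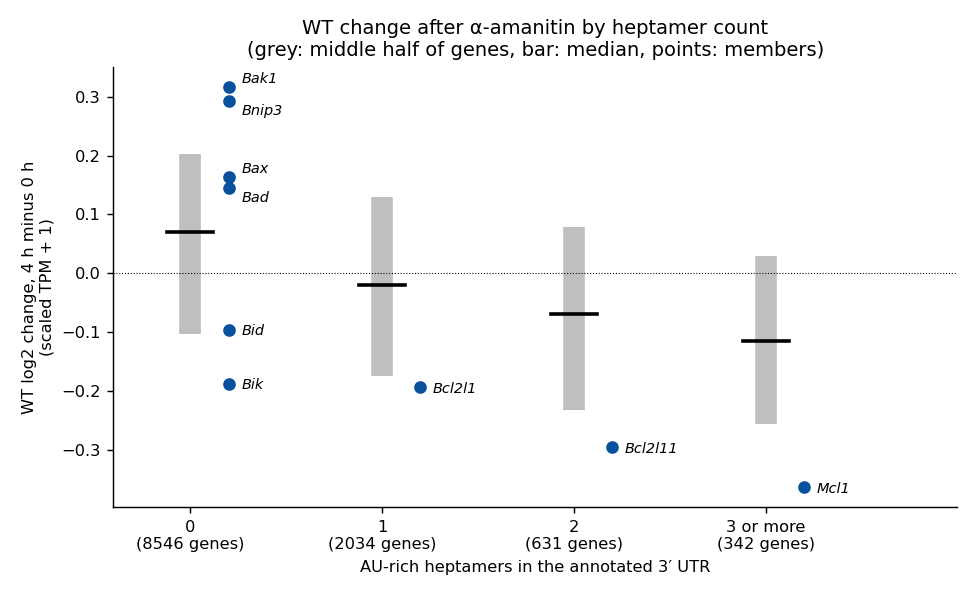
WT log2 change of scaled TPM + 1 after 4 h of α-amanitin (vertical axis) against the number of AU-rich heptamers in the 3′ UTR, with the middle 50% of genes in grey, the class median as a bar and the 9 tested members as points. Class medians step down from 0.070 to -0.11. Mcl1 (-0.36), Bcl2l11 (-0.30) and Bcl2l1 (-0.19) lie below the grey range of their class, as does Bik (-0.19), which has no heptamer. The heptamer was chosen after the changes were known, so the places of the members are a description.

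Which members change when transcription is blocked was asked first in WT. Mcl1, Bcl2l11 and Bcl2l1 fell and Bak1 and Bnip3 rose, each by less than 1.5-fold, a size that 2.1% of all tested genes passed. Of the 9 tested members, 5 passed at an adjusted p under 0.05 against 37.7% of all 12467 tested genes. In each direction, 2 rose against 21.9% of genes and 3 fell against 15.8%. On deposited TPM, without size factors, 3.18% of all genes passed higher and 25.2% lower, and of the members none rose and 4 fell, Bid among them. The median change of the 9 was -0.096, against 0.029 for all tested genes. TPM is relative within a library, so a loss shared by all transcripts leaves no trace in it, and a rise can be a slower loss than that of other transcripts. In bulk RNA, fewer cells of a type and less RNA per cell cannot be told apart either.

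Among the guardians, Mcl1 moved from 274 and 281 scaled TPM at 0 h to 213 and 219 at 4 h. Both 4 h libraries lay below both 0 h libraries, and each held at least 9875 Mcl1 reads. It fell by 0.36 on the log2 scale (SE 0.048, limma adjusted p = 0.00418), which is 1.29-fold lower, and 91.2% and 90.7% of all tested genes stood above its change in the 2 libraries. Bcl2l1, the guardian Bcl-xL, went from 34.03 and 32.9 to 28.1 and 30.2 scaled TPM. Its groups did not overlap, and it fell by 0.19 (SE 0.054, limma adjusted p = 0.0248). Bcl2 went from 0.564 and 0.605 to 0.524 and 0.416 scaled TPM, a difference of -0.11 when low genes were let into the fit (limma adjusted p = 0.236). It shares 558 exonic bases with D630008O14Rik on the opposite strand.

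Of the effectors, Bak1 rose and Bax did not pass. Bak1, which sits in the outer membrane, went from 45.2 and 45.0 scaled TPM to 57.8 and 55.1. The 4 h libraries lay clear of the 0 h libraries, and Bak1 rose by 0.32 (SE 0.066, limma adjusted p = 0.00978). It shares 357 exonic bases with Ggnbp1 on the opposite strand, a gene at 3.45 to 5.23 scaled TPM. Bax, cytosolic until activated, was at 267 and 288 scaled TPM at 0 h and at 313 and 308 at 4 h. These groups did not overlap, but the difference of 0.16 did not pass (SE 0.064, limma adjusted p = 0.0717).

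Of the BH3-only genes, Bcl2l11 went from 20.1 and 18.5 to 15.1 and 15.99 scaled TPM. This gene encodes Bim, which binds every guardian, and it fell by 0.30 (SE 0.070, limma adjusted p = 0.0142) with no overlap between groups. Bnip3 went from 36.1 and 30.9 to 40.0 and 42.4 scaled TPM and rose by 0.29 (SE 0.074, limma adjusted p = 0.0177). Its values are uncertain, since 98.8% of its transcript matches 6 stretches on 2 other chromosomes at 95% identity or more, the longest of 943 bases. No such match was found for the other 9 members.

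Bad, Bid and Bik did not pass in WT on scaled TPM. Bad, a sensitizer regulated by survival kinases, was at 10.6 and 12.4 scaled TPM before and at 13.1 and 12.4 after (difference 0.15, limma adjusted p = 0.239), and it shares 517 exonic bases with Gpr137 on the opposite strand. Bid, which caspase-8 cleaves to its active form, was at 59.9 and 61.0 before and at 55.4 and 57.6 after (-0.096, adjusted p = 0.221), and on deposited TPM Bid passed at -0.25 (limma adjusted p = 0.0376). Bik, a BH3-only protein of the endoplasmic reticulum, was at 2.43 and 1.78 before and at 1.75 and 1.67 after (-0.19, adjusted p = 0.279). In all 10 members the 4 h libraries lay clear of the 0 h libraries, 4 above and 6 below, against 40.5% of tested genes above, 32.4% below and 72.9% in either direction. On deposited TPM 1 member, Bak1, lay clear above and 6 clear below, against 16.6% and 51.7% of genes, and Bax, Bad and Bnip3 overlapped.

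**Figure D3:**
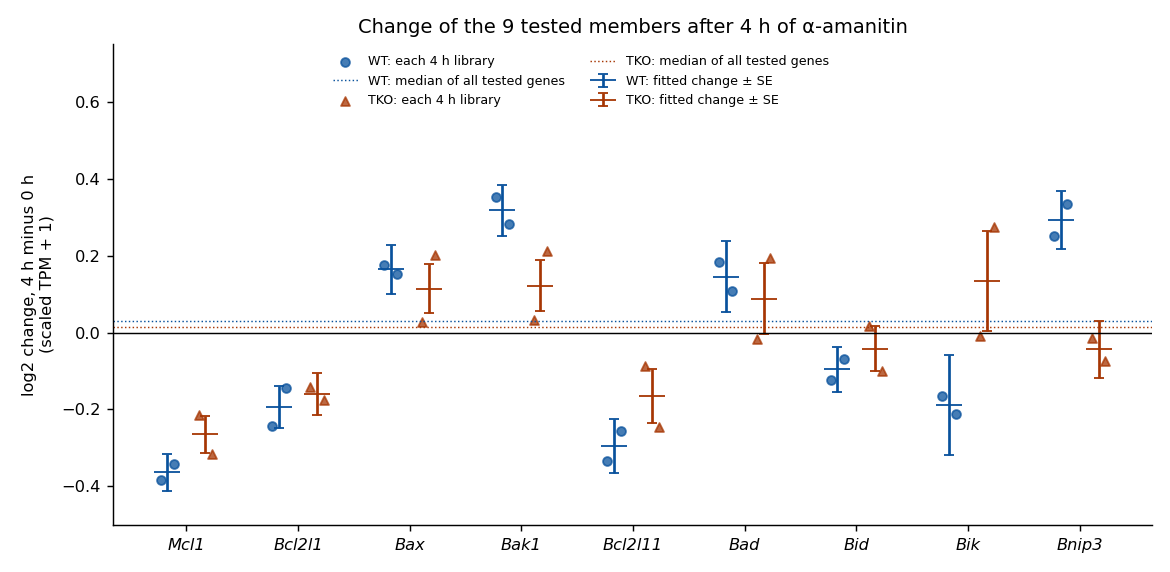
Log2 change from 0 h to 4 h of scaled TPM + 1 (vertical axis) in the 9 tested members, with the fitted change ± SE as a bar and each 4 h library against the mean of its 0 h libraries as a circle (WT) or triangle (TKO). Dotted lines mark the medians of all tested genes, 0.029 in WT and 0.014 in TKO, and Mcl1 is the lowest member in each genotype.

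These calls varied in firmness. Mcl1 passed under all 17 alternative settings, with changes between -0.52 and -0.33. Without size factors the median of all genes itself lay at -0.11, and on that scale Mcl1 changed by -0.52, Bak1 by 0.16 (adjusted p = 0.0664) and Bnip3 by 0.14 (adjusted p = 0.311). Bax was at 0.0045 on deposited TPM and at -0.0023 after quantile normalisation and Bad at -0.0023 on deposited TPM, so the direction of both depends on the scaling. Of the 5 members that passed, 2 did so without WT 0 h replicate 1, 3 without WT 0 h replicate 2 and 1, Mcl1, without WT 4 h replicate 1, when 12.3%, 23.5% and 3.03% of all genes passed.

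In TKO none of the 9 members passed after 4 h with all libraries in the fit, where 0.265% of all tested genes did, all of them lower. At an unadjusted p under 0.05 there were 3 members, Mcl1, Bcl2l1 and Bcl2l11, against 3113 of the 12467 tested genes. Limma voom on recovered reads called 1, Mcl1, and 5.91% of all genes. Mcl1 went from 268 and 267 scaled TPM to 231 and 215. The groups did not overlap, and the difference was -0.26 (SE 0.048, limma adjusted p = 0.0690). Bcl2l1 was at 41.4 and 43.6 before and at 38.4 and 37.5 after (-0.16, adjusted p = 0.142). Bcl2l11 was at 23.9 and 23.5 before and at 22.3 and 19.9 after (-0.17, adjusted p = 0.188). Both lay lower at 4 h in each library.

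The other 6 tested members gave smaller differences in TKO than these 3. Bax was at 257 and 254 scaled TPM at 0 h and at 260 and 294 at 4 h (0.11, limma adjusted p = 0.288), and Bak1 at 41.9 and 39.0 and then at 41.4 and 46.9 (0.12, adjusted p = 0.276). Bnip3 was at 14.3 and 14.1 before and at 14.1 and 13.4 after (-0.044, adjusted p = 0.736). Bid, Bad and Bik had libraries that overlapped between the times, with differences of -0.042, 0.088 and 0.13. In all, 1 member lay clear above and 4 clear below, against 32.8% and 25.9% of tested genes, or 58.7% in either direction. This split depends on the scaling. With deposited TPM 0 members lay clear above and 5 clear below, against 13.2% and 44% of genes, and Bax was among those that overlapped. Without TKO 4 h replicate 1, the library nearer to 0 h, Mcl1 was at -0.31, Bcl2l11 at -0.24, Bax at 0.20 and Bak1 at 0.21. Replicate 1 alone, against the mean of the 0 h libraries, was at -0.21, -0.087, 0.026 and 0.032 for these 4 members. The size of the TKO changes thus depends on which library is kept.

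Mcl1 was set against the other members within each genotype. Its change minus the median change of the 8 other tested members was -0.41 and -0.36 in the 2 WT libraries at 4 h and -0.20 and -0.37 in the TKO libraries. In each of these 4 libraries all 8 other members changed less downward than Mcl1 or rose. The means were -0.39 ± 0.034 in WT and -0.29 ± 0.12 in TKO (SD, n = 2), and the TKO value was -0.37 without replicate 1. For scale, 14 tested genes of a list of immediate-early and other short-lived mRNAs had median changes of -0.46 and -0.48 in the WT libraries. In the TKO libraries they were -0.28 and -0.42. The 9 tested genes of a list of long-lived housekeeping mRNAs stood at 0.29 and 0.25 in WT and at 0.079 and 0.22 in TKO. Mcl1 lay between these lists, nearer to the short-lived one, in all 4 libraries. The members and lists were chosen with earlier results of these data known, so this place is a description.

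Whether the genotypes differ in their change was tested by the interaction, the TKO change minus the WT change. No member and no gene passed by limma (0% of 12467 genes), with 940 genes and 1 member at an unadjusted p under 0.05, and limma voom called none either. Over all alternative settings at most 8 genes passed, with no member among them. For Mcl1 the interaction was 0.099 (SE 0.068, limma adjusted p = 0.697). It was 0.054 without TKO 4 h replicate 1, and lay between 0.054 and 0.15 when single libraries were left out. Bnip3 was that member, at -0.34 (SE 0.11, limma adjusted p = 0.662).

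Ratios of TPM between members of the same library do not depend on size factors. The ratio of Mcl1 to Bax, a guardian over an effector, was 1.03 and 0.977 in WT at 0 h and 0.679 and 0.710 at 4 h. In TKO it was 1.04 and 1.05 at 0 h and 0.887 and 0.732 at 4 h. It lay lower at 4 h in every library of both genotypes. The ratio of Mcl1 to Bcl2l1, 2 guardians that both declined in WT, went from 8.05 and 8.56 to 7.57 and 7.24 in WT and from 6.47 and 6.13 to 6.002 and 5.73 in TKO. It lay lower in TKO than in WT at either time. The ratio of Bcl2l11 to Bcl2l1 stayed between 0.530 and 0.589 in all 8 ribodepleted libraries.

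**Figure D4:**
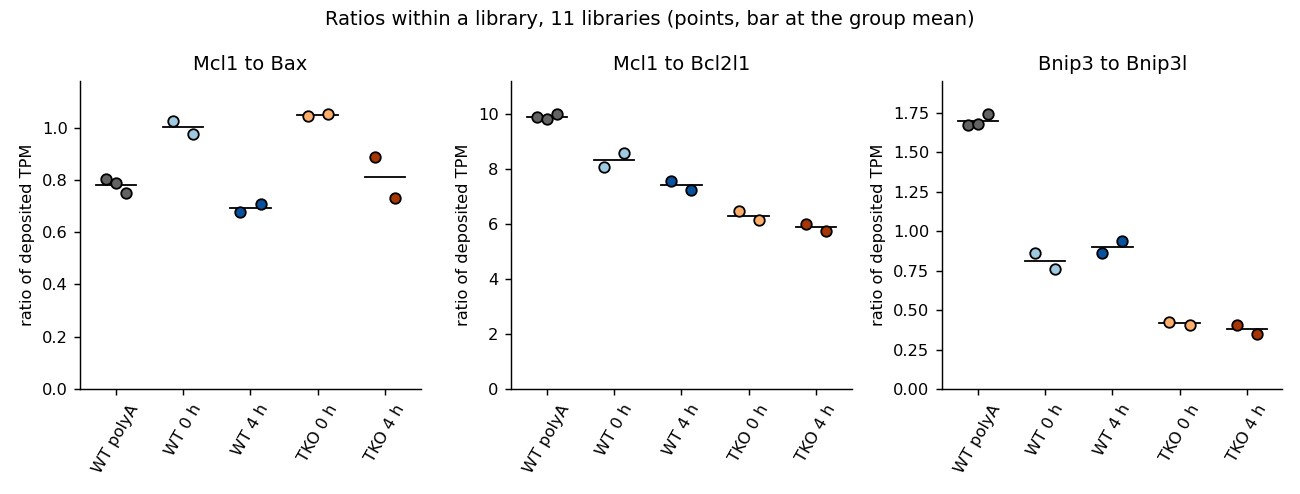
Ratios of deposited TPM within each of the 11 libraries (vertical axes from 0), with 1 point per library and a bar at the group mean. Mcl1 to Bax drops below 0.9 in all 4 libraries after α-amanitin, Mcl1 to Bcl2l1 is lower in TKO, and Bnip3 to Bnip3l is lower in TKO and higher in polyA libraries than in WT at 0 h.

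The genotypes were then compared directly. At 0 h Bnip3 and Bid were lower in TKO, and Bik, Bcl2l1 and Bcl2l11 were higher. These 5 of 9 tested members (3 higher, 2 lower) compare with 56.1% of all tested genes, 27.8% higher and 28.3% lower, so the members passed about as often as genes at large. On deposited TPM the same 5 members passed, with 33.4% of all genes higher and 17.6% lower. Over 1.5-fold, or 0.585 on the log2 scale, were 3 members, Bnip3, Bid and Bik, against 15.9% of genes. Bnip3 stayed over that size in all 17 alternative settings. Bid was at -0.52 on deposited TPM and at -0.56 without TKO 0 h replicate 1. It also fell short of that size after quantile normalisation and with a pseudocount of 5. Bik was at 0.34 with a pseudocount of 5 and at 0.54 both after quantile normalisation and without WT 0 h replicate 2. These comparisons share the WT and TKO libraries of the time courses and are not independent of them.

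Bnip3, the mitophagy receptor, was at 36.1 and 30.9 scaled TPM in WT and at 14.3 and 14.1 in TKO. The genotypes were far apart, with a log2 difference of -1.18 (SE 0.074, limma adjusted p = 4.92e-06), which is 2.26-fold lower, for a gene with near-identical copies as stated above. Its paralog Bnip3l, also a mitophagy receptor, was lower by 0.27 (adjusted p = 0.00506), and the ratio of Bnip3 to Bnip3l was 0.861 and 0.763 in WT and 0.424 and 0.408 in TKO. Bid was at 59.9 and 61.0 in WT and at 37.6 and 40.8 in TKO, a difference of -0.61 (SE 0.058, adjusted p = 4.44e-05). Bid shares 628 exonic bases with Bcl2l13 on the opposite strand, whose 8 libraries stayed between 15.8 and 17.7 scaled TPM.

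Bik was the weakest of the tested members in WT, at 2.43 and 1.78 scaled TPM, and was at 3.87 and 4.13 in TKO. It was higher by 0.70 (SE 0.13, limma adjusted p = 0.00191). Bcl2l1 was at 34.03 and 32.9 in WT and at 41.4 and 43.6 in TKO (0.34, SE 0.054, adjusted p = 0.000864). Bcl2l11, the BH3-only counterpart that Bcl-xL can sequester, was at 20.1 and 18.5 in WT and at 23.9 and 23.5 in TKO (0.29, SE 0.070, adjusted p = 0.00781). Without WT 0 h replicate 2, Bcl2l11 did not pass (0.23, limma adjusted p = 0.0607). For all 3 both TKO libraries lay above both WT libraries, as for 39% of tested genes.

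Mcl1 was at 274 and 281 scaled TPM in WT and at 268 and 267 in TKO, a difference of -0.053 (SE 0.048, limma adjusted p = 0.374). Its sign depended on the scaling, with 0.044 on deposited TPM and 0.091 after quantile normalisation. Bax, Bak1 and Bad differed by -0.12, -0.15 and -0.13 (adjusted p = 0.146, 0.0757 and 0.247), and Bax turned to 0.014 after quantile normalisation. Without TKO 4 h replicate 1, which changes the shared spread, Bak1 (-0.16, limma adjusted p = 0.0237) and Bax (-0.12, adjusted p = 0.0439) passed at 0 h, along with 60.8% of all genes. Bcl2, outside the tested set, was at 0.564 and 0.605 in WT and at 0.736 and 0.746 in TKO.

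At 4 h in α-amanitin, 7 of the 9 tested members differed between the genotypes, 3 higher and 4 lower in TKO. Of all tested genes 59.4% differed, 29% higher and 30.4% lower, and on deposited TPM 40.3% were higher and 16.6% lower, with 4 members higher and 3 lower. Bnip3 was at 40.0 and 42.4 scaled TPM in WT and at 14.1 and 13.4 in TKO (log2 difference -1.52, SE 0.074, limma adjusted p = 1.38e-06). Bik was at 1.75 and 1.67 in WT and at 3.97 and 5.05 in TKO (1.02, SE 0.13, adjusted p = 0.000199). These were the 2 members over 1.5-fold, against 16.8% of genes. Bid (-0.56), Bcl2l11 (0.41) and Bcl2l1 (0.37) kept the direction they had at 0 h, with adjusted p of 6.64e-05, 0.000976 and 0.000439.

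Both effectors were lower in TKO at 4 h. Bak1 was at 57.8 and 55.1 scaled TPM in WT and at 41.4 and 46.9 in TKO (-0.35, SE 0.066, limma adjusted p = 0.00186). Bax was at 313 and 308 in WT and at 260 and 294 in TKO (-0.17, adjusted p = 0.0477), a call that was lost in 9 of 17 alternative settings and turned to 0.059 after quantile normalisation. Mcl1 overlapped between the genotypes, at 213 and 219 in WT and at 231 and 215 in TKO (0.046, adjusted p = 0.430). Bcl2 was at 0.524 and 0.416 in WT and at 0.740 and 0.713 in TKO, 0.23 higher when low genes were let into the fit (adjusted p = 0.0162). Mcl1 was higher in TKO on deposited TPM, by 0.20 (adjusted p = 0.0169), where the median of all genes lay at 0.14, and by 0.23 after quantile normalisation (adjusted p = 0.0121). Without TKO 4 h replicate 1, Bax was at -0.076, Bak1 at -0.26, Bnip3 at -1.54, Bik at 1.16, Bid at -0.61, Bcl2l11 at 0.34 and Bcl2l1 at 0.36. Leaving out single libraries gave -0.25 to -0.076 for Bax and -0.44 to -0.26 for Bak1.

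**Figure D5:**
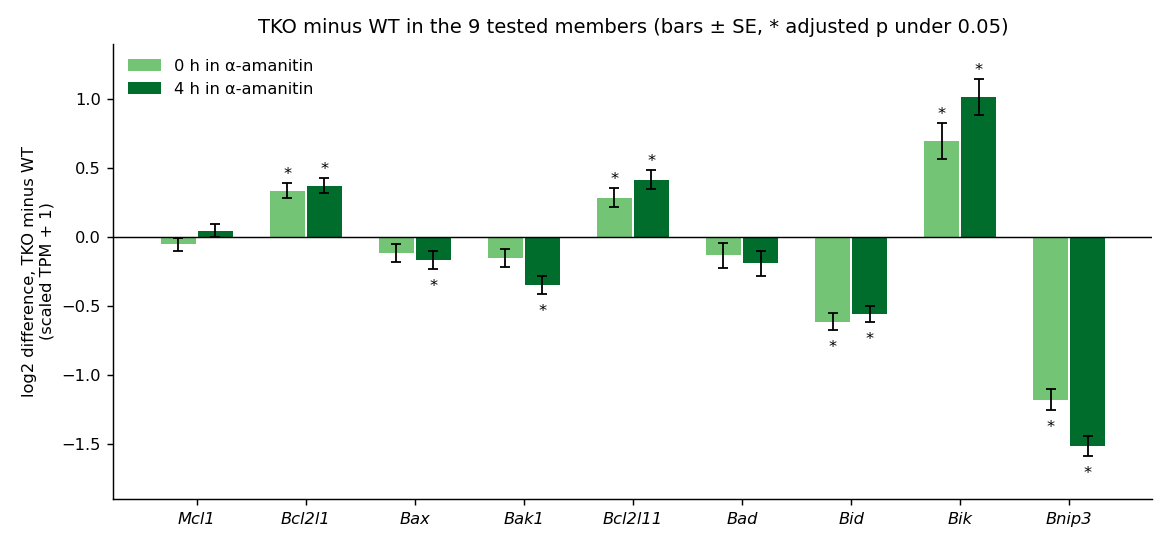
Log2 difference between TKO and WT in scaled TPM + 1 (vertical axis) for the 9 tested members at 0 h (light) and at 4 h (dark), as bars with SE and a star where the limma adjusted p was under 0.05. Bnip3 (-1.18 and -1.52) and Bid (-0.61 and -0.56) lie below 0 and Bik (0.70 and 1.02) above it at both times, whereas Mcl1 lies near 0.

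Some marker genes of other cell types moved with the genotype. Of the 6 trophoblast markers, 3 were tested and 2 passed, the keratins Krt8 (higher by 2.55 in TKO at 0 h) and Krt18 (2.69), while Tfap2c did not. The 6 genes summed to between 181 and 219 scaled TPM in WT and between 979 and 987 in TKO at 0 h, and to between 216 and 229 and between 1015 and 1183 at 4 h. Krt8 and Krt18 made up most of the sums at 0 h, with means of 82.2 and 69.5 scaled TPM in WT and 483 and 450 in TKO. Fibroblast markers stayed low, summing to at most 14.8 scaled TPM in any ribodepleted library. Of the 4 tested fibroblast markers, 1 passed at 0 h, Col1a2, higher in TKO by 1.18. At 4 h Col1a2 was higher in TKO by 1.13 and Col3a1 was lower by 0.36 (limma adjusted p = 0.0429). The primitive endoderm list summed to at most 5.10, with Gata4 lower by 0.61 and Dab2 higher by 0.47. Of the ESC markers, 7 of 11 were lower in TKO at 0 h, Zfp42 by 2.08, Klf4 by 0.98 and Esrrb by 0.74, and 2 were higher, by at most 0.22. The part of these shifts in the values of the members was not tested.

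PolyA and ribodepleted libraries of WT ESCs at 0 h were compared in a fit of their own. RNA selection and experiment differ together between them and cannot be told apart. Bnip3, Bax, Bak1, Mcl1 and Bcl2l11 were higher in polyA RNA and Bid was lower, 6 of 9 members against 81% of 12481 tested genes (40.1% higher and 40.9% lower). On the scale of these 5 libraries, Mcl1 was at 353, 350 and 362 scaled TPM in polyA RNA and at 289 and 297 in ribodepleted RNA (0.27, SE 0.036, limma adjusted p = 0.000123). Bax was at 439, 442 and 481 and at 282 and 304 (0.63, adjusted p = 6.78e-06). The polyA libraries of both genes lay above the ribodepleted ones.

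Bnip3 showed the widest gap of the members, at 150, 153 and 159 scaled TPM in polyA RNA and at 38.1 and 32.7 in ribodepleted RNA. It was 4.26-fold higher, a log2 difference of 2.09 (SE 0.062, limma adjusted p = 1.54e-08). Bid was at 53.1, 51.6 and 55.5 and at 63.3 and 64.4 (-0.25, adjusted p = 0.000495). Bak1 (0.44) and Bcl2l11 (0.22) were higher, whereas Bcl2l1 (0.022, adjusted p = 0.610), Bik (0.13) and Bad (0.14) did not pass. Bcl2 was at 0.226, 0.372 and 0.277 scaled TPM in polyA RNA and at 0.596 and 0.639 in ribodepleted RNA, a difference of -0.33 with low genes in the fit (adjusted p = 0.00333). The trophoblast list summed to between 59.1 and 62.7 scaled TPM in polyA RNA and between 191 and 232 in ribodepleted RNA. The ESC list summed to between 13332 and 13716 in polyA RNA and between 5022 and 5153 in ribodepleted RNA. The part of either list in these values was not tested.

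Other genes of the pathway were described from lists by role. Of 18 further Bcl2 family and BH3-only genes, 12 were tested. In WT after α-amanitin 1 rose, the autophagy regulator Becn1 (0.14, limma adjusted p = 0.0411), and 1 fell, Bcl2l12 (-0.21, adjusted p = 0.0196), with a median of -0.018. Of all tested genes 21.9% rose and 15.8% fell. In TKO at 0 h 3 of the 12 were higher and 3 lower, against 27.8% and 28.3% of all genes. Pmaip1, which encodes the Mcl1 antagonist Noxa, was at 34.1 and 34.6 scaled TPM in WT and at 60.4 and 57.5 in TKO (0.76, adjusted p = 1.52e-05). It was higher again at 4 h (0.72), when Bcl2l14 (-0.56) and Bnip3l (-0.32) were lower. The guardian Bcl2l2 (Bcl-w) was higher at 0 h by 0.40 (adjusted p = 0.00128).

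Downstream of the membrane, Cycs, the cytochrome c gene, rose in WT after α-amanitin (0.27, limma adjusted p = 0.0244) and Casp2 fell (-0.38, adjusted p = 0.0118). In TKO at 0 h the initiator caspase Casp8 (1.31), Casp6 (0.78) and the apoptosome scaffold Apaf1 (0.51) were higher. All 5 genes of a list of membrane partners rose in WT, against 21.9% of all genes, with a median of 0.25. Among them were the channels Vdac1 (0.25) and Vdac3 (0.25), the Bid receptor Mtch2 (0.26) and Tmbim6 (0.28). Of a list of 9 genes for IAPs and mitochondrial proteins, 2 rose in WT, Endog (0.51) and Diablo (0.21), against 21.9% of all genes. From the same list 2 fell, the ubiquitin ligases Birc3 (-0.28) and Birc2 (-0.28), against 15.8%. Of the genes for Mcl1 protein turnover, 5 of 6 were tested. In WT 1 of these fell, the ligase substrate receptor Fbxw7 (-0.19), against 15.8% of all genes. All 5 differed between genotypes at 0 h, as did 56.1% of all genes, with 3 lower in TKO, among them the deubiquitinase Usp9x (-0.28) and Fbxw7 (-0.20), and 2 higher, Usp13 (0.37) and Btrc (0.31). None of these lists had a gene that passed in TKO after α-amanitin with all libraries in the fit. The 5 membrane partner genes had a median change in TKO of 0.17 with all libraries and of 0.23 without TKO 4 h replicate 1.

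The 2 reference lists framed the time course. Of 14 tested short-lived mRNAs, 13 fell in WT, with Egr1 at -0.77, Dusp6 at -0.69, Myc at -0.64 and Ier2 at -0.58, and the median was -0.48. Of 9 tested long-lived mRNAs, 7 rose, with Cox4i1 at 0.34, Ldha at 0.30, Actb at 0.30 and Gapdh at 0.27, and the median was 0.27. In TKO no gene of either list passed with all libraries in the fit, and the medians were -0.37 and 0.16. Without TKO 4 h replicate 1 the medians were -0.42 and 0.23, and in replicate 1 alone they were -0.28 and 0.079.

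The genes most like Mcl1 over the 8 ribodepleted libraries were Fgf4 (Pearson r = 0.997), Zfp105 (0.995), 1500012F01Rik (0.995), Gas5 (0.995) and 2700023E23Rik (0.993), among 8108 genes with a mean above 10 scaled TPM. The libraries fall into treated and untreated sets, which such a coefficient largely reflects, and it is given as a description. Gas5, a host gene of small nucleolar RNAs, went from 324 and 329 to 172 and 170 scaled TPM in WT. Fgf4, a growth factor of ESCs, went from 153 and 160 to 88.0 and 94.5. Of the members, Bcl2l11 (0.56) and Bcl2l1 (0.44) had the highest r with Mcl1, and Bak1 (-0.66) and Bax (-0.66) the lowest.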

How the data were processed

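Libraries were grouped by the sample titles. TPM values were computed by the authors from HTSeq gene counts after ribosomal read removal, trimming and STAR alignment to mm9 with RefSeq genes. They were deposited as 1 TPM value per gene and library. Libraries were strand-specific, but the strand setting of the counting and software versions are not given in the sources used here, so genes that overlap or have copies are uncertain.

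Deposited TPM values lie on steps of whole reads, which gave the depth for 100% of the 19869 genes above 0 (tolerance 0.02 reads). Chi-square per degree of freedom between replicates was at least 1.53, so no library was counted as a repeat. The amanitin libraries are biological duplicates per the study's methods, and p-values measure the spread between these libraries.

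Each ribodepleted library was scaled by its size factor (median of ratios). The fit used limma 3.58.1 in R 4.3.3 (lmFit, eBayes with trend, two-sided) on the log2 of scaled TPM + 1, with 1 coefficient per group, for genes with a mean above 1. Fold changes are on that scale, which understates low genes. P-values were Benjamini-Hochberg adjusted over all tested genes. A gene passed at an adjusted p under 0.05, with 1.5-fold as a further mark. Where groups of 2 are compared, all 8 libraries share 1 estimate of the spread. The fit was tested on simulated data.

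Named were the 10 members, the 4 genes per list and comparison with the largest absolute change among those that passed (a selection of these is given, and some genes of the apoptosome and caspase list are not reported here), the 5 genes most like Mcl1, and the Tet genes. The members and lists were chosen with earlier results of these data known.

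3′ UTRs came from the protein-coding transcript of each gene with the longest coding sequence in GENCODE vM1 on NCBIM37. Copies were sought with blastn 2.17.0 at 95% identity over 100 bases or more. Alternatives were deposited TPM, quantile normalisation, pseudocounts of 0.1 and 5, no filter and a mean above 5, a replicate block, no variance trend, limma voom on recovered reads, and leaving out each library.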

Additional observations from a re-analysis of the deposited data

Results flagged for a closer look

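On scaled TPM, Bnip3 at 4 h lay above the 0 h values in WT and below them in TKO, although the TKO difference of -0.044 did not pass (SE 0.074, limma adjusted p = 0.736). In WT both 4 h libraries (40.0 and 42.4 scaled TPM) lay above both 0 h libraries (36.1 and 30.9), and in TKO both 4 h libraries (14.1 and 13.4) lay below both 0 h libraries (14.3 and 14.1). The TKO change minus the WT change was -0.34 on the log2 scale (SE 0.11, limma adjusted p = 0.662). It did not pass the correction over all genes, and it lay between -0.44 and -0.23 over 17 alternative settings, none of which passed. The TKO libraries at 0 h and 4 h differ by less than 1 scaled TPM, and Bnip3 has near-identical copies elsewhere in the genome.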

How the results depend on the processing

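Over 876 single values of members under alternative settings, 812 kept their direction and side of the threshold, 22 gained a call, 21 lost one and 21 changed sign. None of the 21 that changed sign came from a value past the threshold except Bax in TKO against WT at 4 h, which was at 0.059 after quantile normalisation. After quantile normalisation Bax was also at -0.0023 in WT at 4 h, at 0.014 in TKO against WT at 0 h and at 0.044 in the interaction, and Mcl1 was at 0.091 in TKO against WT at 0 h. On deposited TPM Bad was at -0.0023 in WT and at -0.0016 in TKO at 4 h and at 0.00072 in the interaction, Bax was at 0.012 in the interaction, and Mcl1 was at 0.044 in TKO against WT at 0 h. Leaving out single libraries gave -0.016 to 0.19 for Bad, -0.098 to 0.017 for Bid and -0.0079 to 0.28 for Bik in TKO at 4 h. In the interaction it gave -0.16 to 0.052 for Bad, -0.14 to 0.043 for Bax and -0.029 to 0.079 for Bcl2l1, and between polyA and ribodepleted RNA -0.012 to 0.037 for Bcl2l1 and -0.036 to 0.27 for Bik.

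The count of members past the threshold in WT at 4 h was 5, when 37.7% of all genes passed. That in TKO at 4 h was 0, when 0.265% of all genes passed. With all libraries in the fit, it became 1 (Mcl1) on deposited TPM, with a mean above 5 and by limma voom. Of all genes 0.817%, 0.827% and 5.91% then passed. The TKO changes of the members were larger without TKO 4 h replicate 1, as given above. Mcl1 minus the median of the others in WT was -0.45 after quantile normalisation, against -0.39. With a replicate block the counts were 5 in WT and 0 in TKO at 4 h, when 38.3% and 0.225% of all genes passed. Between genotypes they were 5 at 0 h and 7 at 4 h, when 56.4% and 59.5% of all genes passed. Between genotypes, leaving out single libraries gave 4 to 7 members at 0 h and 6 to 8 at 4 h. The numbers were not taken to pair the libraries, since deviations of same-numbered libraries correlated at -0.044 to 0.12.

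With 2 libraries per group, a setting that leaves out 1 library assumes that the lone library varies like the other groups. Bcl2 rests on 43 to 92 reads per ribodepleted library, so counting error limits what can be seen in it.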
